A study of Arabidopsis thaliana with 36 samples.

Results

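The genes described here are the 57 of 27444 Arabidopsis thaliana genes whose annotation text, in any letter case, contains "proteasome", "regulatory particle" or "RP non-ATPase". By locus and annotation they comprised 11 genes of the 20S alpha ring, 7 of the 20S beta ring, 8 RPT ATPases, 12 RPN non-ATPases, 8 assembly factors and regulators, and 11 others that matched only by their text. The last set was not made of proteasome subunits alone: CSN2, CSN3, CSN4 and CSN7 are subunits of the COP9 signalosome, a related complex that removes the ubiquitin-like protein NEDD8 from cullin ligases. The other genes of this set, among them the PCI domain genes AT3G02200, AT5G15610, AT4G19006 and AT5G45620, were not assigned to a complex here. Some may be subunits that the RPN counts leave out, and some may not belong to the proteasome. Conversely, 17 further loci of subunits and related factors, among them PBA1, PBB1, PBF1, RPT2B and RPN6, carry other annotation text and fell outside the rule.

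The 26S proteasome degrades proteins marked with ubiquitin chains. Its 20S core is a barrel in which outer rings of alpha subunits guard the entrance and inner rings of beta subunits carry the proteolytic sites, while the regulatory particle holds a ring of RPT ATPases that unfold and feed in substrates and RPN subunits that bind ubiquitin, remove it and scaffold the particle. In Arabidopsis many subunits are encoded by a pair of paralogous genes, and the transcription factors NAC53 and NAC78 raise subunit genes when the proteasome is impaired.

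Poly(A) RNA was sequenced from mature rosette leaves and roots of wild-type Col-0 plants (WT), a ppsr1 T-DNA knockout (KO) and an AtPPSR1 overexpression line (OE). Plants grew hydroponically, 4 to a box, with 200 µM phosphate (Pi) for 4 weeks and then received 200 µM or 0 µM Pi for 24 h. Each of the 12 groups, defined by genotype, Pi and organ, had 3 libraries, described by the submitters as independent biological replicates; each modified genotype is represented by a single line as far as the labels say. The PPSR1 locus is not named in the sources used here, so the knockout and the overexpression were not checked.

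Values are FPKM, reads per kb of coding sequence scaled to the reads of the library, and depth recovered from them was 6680000 to 13190000 reads per leaf library and 2070000 to 11780000 per root library. The 5 leaf markers used to check the organ summed to between 45800 and 91910 FPKM in leaf and between 348.5 and 1561 FPKM in root, and the 5 root markers to between 281.4 and 714.0 FPKM in root and between 15.18 and 34.94 FPKM in leaf. Of the root markers, SCR separated the organs least. Its group means were 10.9 to 13.87 FPKM in leaf and 15.51 to 19.85 FPKM in root. Single libraries overlapped, with 20.61 FPKM in KO leaf at 200 µM replicate 1 and 11.52 FPKM in WT root at 200 µM replicate 2. SPX1, a Pi starvation marker, was higher at 0 µM in roots of WT, KO and OE, with log2 changes of 2.75, 3.15 and 2.91 (SE 0.28 each; adjusted p = 0.0001099, 1.243e-05 and 4.545e-05, limma). In leaf its log2 change was 1.498 ± 0.37 (SE) in WT, which missed the threshold (adjusted p = 0.4024, limma), while KO had 3.41 and OE 1.99 (adjusted p = 0.0003762 and 0.0147, limma). The markers AT4, PAP17 and MGD3 passed in the roots of 3, 3 and 1 genotypes, in KO leaf all 3 passed, in OE leaf MGD3 alone did, and in WT leaf none did. Genes with over 4000 coding bases stood far from their organ mean in some libraries, with median deviations between -1.07 in WT root at 200 µM replicate 2 and 0.95 in WT leaf at 0 µM replicate 3 on the log2 scale.

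Upstream sequence was examined because the letters TGGGC have been described in promoters of Arabidopsis proteasome genes. Of the 57 genes, 33 had 250 bases before the annotated start that overlapped no other gene (RefSeq annotation, assembly TAIR10.1). TGGGC or its reverse complement GCCCA occurred in 15 of these 33 windows (45.5%), against 4182 of 19901 windows of all genes (21%). Among RPT and RPN genes 7 of 12 windows held it, each at least 2 times, and among 20S core genes 5 of 11 did. It was in 2 of 5 windows of assembly factors and regulators and in 1 of 5 of genes matched by text alone. The letters form part of the site II element TGGGCC or TGGGCT found before many other plant genes, so a match names no factor. TATAAA, also searched on both strands, was in 42.4% of the members' windows and in 51% of all windows, and AAACCCTA was in 6.06% and 3.85%. The 3 windows printed here belong to genes named again in the results: RPN1A and RPN1B, whose balance differed between organs, and PBB2 of the 20S core. They are rich in matches and not typical: only 12 of the 33 windows held 2 or more, and the most in a window was 5. The printed windows are written 5′ to 3′ on the gene's strand up to the base before the start, with TGGGC and GCCCA in capitals.
RPN1A, chr2:8858712-8858961, plus strand: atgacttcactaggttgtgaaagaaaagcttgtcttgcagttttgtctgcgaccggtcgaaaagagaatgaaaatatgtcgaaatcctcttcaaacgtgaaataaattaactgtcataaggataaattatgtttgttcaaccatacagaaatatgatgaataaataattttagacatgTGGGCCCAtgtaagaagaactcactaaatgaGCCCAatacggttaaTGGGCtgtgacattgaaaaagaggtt
RPN1B, chr4:14072583-14072832, minus strand: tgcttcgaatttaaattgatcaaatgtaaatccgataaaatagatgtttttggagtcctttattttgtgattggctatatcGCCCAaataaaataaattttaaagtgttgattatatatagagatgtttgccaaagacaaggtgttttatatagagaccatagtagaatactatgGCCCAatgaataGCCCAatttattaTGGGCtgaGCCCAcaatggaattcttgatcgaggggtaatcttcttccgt
PBB2, chr5:16250926-16251175, minus strand: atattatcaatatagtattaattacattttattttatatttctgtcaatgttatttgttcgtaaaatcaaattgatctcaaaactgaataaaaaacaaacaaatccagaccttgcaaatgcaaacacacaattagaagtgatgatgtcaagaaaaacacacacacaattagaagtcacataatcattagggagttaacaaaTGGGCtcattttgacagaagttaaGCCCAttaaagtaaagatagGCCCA
RPN1A held 4 matches, 26 to 72 bases before the start, and the pair TGGGCCCA in it counts as overlapping matches on both strands. RPN1B held 5 matches, 42 to 169 bases before the start. PBB2 held 3, between 5 and 49 bases. Across the members' 33 windows the median match lay 63 bases before the start.

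Most of the 57 genes were well expressed in both organs. In WT at 200 µM Pi their median was 39.5 FPKM in leaf and 73.7 FPKM in root, against 6.98 and 10.0 FPKM for all genes above 0, and 43 genes in leaf and 49 in root lay above the 75th percentile of all genes. The 20S alpha ring led the subunit groups in leaf with PAD1 at 164 ± 29.9 FPKM (SD, n = 3), and its lowest member PAF2 stood at 23.1 ± 3.12 FPKM. In root PAC1 was the highest alpha gene at 213 ± 26.6 FPKM and PAF2 again the lowest at 60.4 ± 11.2 FPKM. Among beta ring genes PBG1 was highest in leaf (139 ± 18.4 FPKM) and PBE1, which encodes a subunit of the catalytic class, in root (161 ± 7.01 FPKM), while PBC2 was lowest in both organs (32.7 ± 6.52 and 50.2 ± 15.9 FPKM).

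The base of the regulatory particle was led by RPT3 in leaf (110 ± 15.4 FPKM) and RPT5A in root (196 ± 19.4 FPKM). AT1G53780, an RPT1-like locus, was the lowest ATPase gene in both (22.8 ± 10.6 and 18.9 ± 6.88 FPKM). Among RPN genes the ubiquitin receptor RPN10 was highest in leaf and root, with 89.4 ± 8.88 and 168 ± 37.4 FPKM. RPN12B was lowest, at 0.967 ± 0.139 FPKM in leaf and 0.453 ± 0.309 FPKM in root. AT5G38650, annotated as the maturation factor UMP1, was the highest member outside the subunits, at 153 ± 31.8 FPKM in leaf and 273 ± 64.2 FPKM in root. CSN7 led the genes matched by text alone in leaf (39.5 ± 6.43 FPKM) and AT3G02200, a PCI domain gene, in root (76.3 ± 8.83 FPKM). At the other end, AT1G48530, annotated as proteasome inhibitor-like, was listed at 0 in all root libraries and averaged 0.218 FPKM over 18 leaf libraries, and AT4G08140, a short locus annotated as a regulatory subunit-like protein, was listed at 0 in all leaf libraries.

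**Figure D1:**
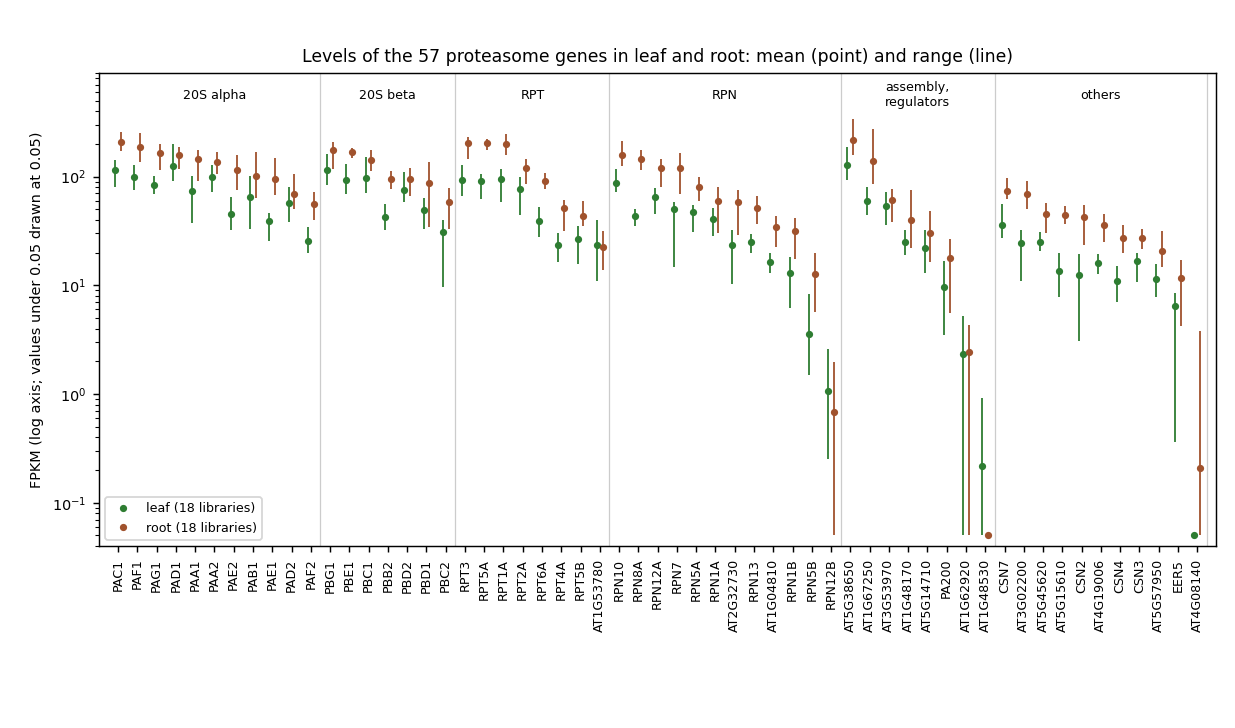
Mean FPKM (point) and range (line) of each of the 57 genes over 18 leaf and 18 root libraries, on a log axis, grouped by role and ordered by root level within a role. Root means lie above leaf means for most genes, AT1G53780 has near-equal means of 23.3 FPKM in leaf and 22.3 FPKM in root, and 3 genes stay near or under 1 FPKM in both organs.

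Levels varied little over the 18 libraries of an organ. The median coefficient of variation was 18.1% among the 55 members with a mean of at least 1 FPKM in leaf, where that of all such genes was 29.5%, and 15.6% among 54 members in root, where that of all such genes was 25.7%. Most members stood higher in level than most genes, and no genes of matched level were compared, so the part of level in this gap was not tested. The steadiest member in root had a coefficient of 6.20%. Summed over the 57 genes, FPKM per library ran from 2330 to 3036 in leaf and from 4246 to 5651 in root, so the organs did not overlap. Group means of the sum ranged from 2480 ± 156 (KO, 0 µM) to 2828 ± 91.9 (WT, 200 µM) in leaf, and from 4520 ± 237 (KO, 200 µM) to 5279 ± 379 (OE, 200 µM) in root. Each role's share of the sum overlapped between organs: the alpha ring took a median of 30.8% in leaf and 28.8% in root, and the RPN genes 15.4% and 17.9%.

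**Figure D2:**
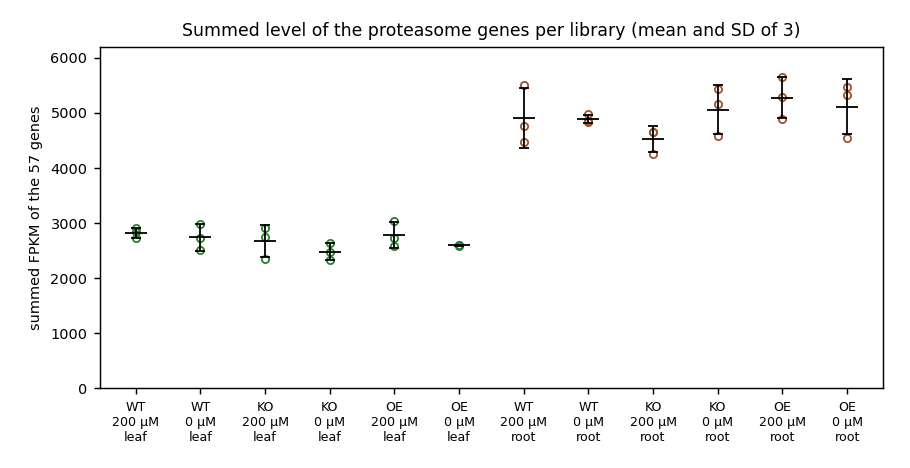
Summed FPKM of the 57 genes in each library (open circles) with the mean and SD of the 3 libraries of a group, for 12 groups. Leaf libraries lie between 2330 and 3036 and root libraries between 4246 and 5651, and within an organ some groups overlap while others, such as KO and OE root at 200 µM, do not.

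Which paralog supplies a subunit's transcript was described by shares. Coding sequences formed 23 reciprocal best pairs of at least 60% identity that held at least 1 of the genes, and in 15 of them both genes were members. Within a pair, library scaling largely cancels, so the ratio of the 2 genes was compared between organs by permuting organ labels within each genotype and Pi condition (100000 permutations, two-sided, Benjamini-Hochberg over the 23 pairs), a test added after the data had been seen. The ratio differed between root and leaf in 16 of 23 pairs. Pairs of other gene families were not analysed here, so the count has no background to be read against.

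RPN1A and RPN1B encode a large scaffold subunit of the regulatory particle and are 86.3% identical. In leaf RPN1A gave 71.7% to 82.6% of the pair's summed FPKM, with a median of 75.9%, and in root 59.6% to 70.7%, with a median of 65.7%. This was the only pair of the 23 whose leaf and root shares did not overlap (permutation adjusted p = 2.88e-05, raw p = 1e-05, the smallest the permutations can give; log2 ratio lower in root by 0.72 in the mean, same sign in 6 of 6 conditions). At 200 µM in WT, RPN1A stood at 51.2, 28.14 and 40.99 FPKM in leaf and 56.32, 30.04 and 44.39 FPKM in root. RPN1B stood at 15.1, 6.19 and 16.18 FPKM in the same leaf libraries and 28.9, 17.5 and 26.46 FPKM in the root libraries. In this condition the leaf and root values of RPN1A interleaved, while every root value of RPN1B lay above its leaf values. This was the smallest organ difference of RPN1A (0.11 on the log2 scale): over the 6 conditions its median was 0.50, it was higher in root without overlap in 4 and passed the threshold in those 4 with FPKM as deposited, and in none after median-of-ratios scaling. RPN1B had a median of 1.26 and passed in all 6 as deposited and in 4 after scaling.

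RPT2A, an ATPase subunit gene known for root meristem maintenance, gave a median of 83.1% of its pair with RPT2B in leaf and 69.6% in root, a mean log2 ratio difference of -1.02 (permutation adjusted p = 2.88e-05). RPN5A gave 93.5% of its pair with RPN5B in leaf and 86.4% in root (-0.86, permutation adjusted p = 2.88e-05). PAA2, an alpha ring gene, gave 57.7% in leaf and 47.3% in root, so that PAA1 was the larger in root by the median (-0.55, permutation adjusted p = 2.88e-05). In 3 of the 4 beta ring pairs the larger share in leaf was smaller in root: PBD2 held 60.2% and 51.7% of its pair, PBC1 76.3% and 69.9%, and PBB1 66.4% and 63.0% (permutation adjusted p = 0.000322, 0.000991 and 0.000153). The fourth, PBE1 with AT3G26340, had 84.0% in leaf and 85.3% in root (0.13; permutation adjusted p = 0.136). In 5 pairs that passed, the more abundant gene held the larger share in root instead. RPT1A gave 79.9% of its pair with AT1G53780 in leaf and 90.5% in root (1.08), and RPT5A gave 78.1% and 82.3% of its pair with RPT5B (0.44; permutation adjusted p = 2.88e-05 for both).

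Some pairs share enough sequence that reads could have been split between them. RPT6A shares 306 words of 31 coding bases with AT5G20000, and its share of 60.4% in leaf and 65.0% in root is uncertain for that reason, as are, to a lesser degree, those of RPT1A with AT1G53780 (80 shared words), RPT2A with RPT2B (60) and PAA2 with PAA1 (40). RPN12B was near 1 FPKM, where the ratio with RPN12A depends on the pseudocount: the mean log2 difference was 1.18 with 1 FPKM added and 1.59 with 0.1 FPKM added, in a pair where RPN12A gave at least 96.4% in all libraries. The 7 pairs that did not pass were PBE1 with AT3G26340, PAB1 with AT1G79210, PAE2 with PAE1, PAD1 with PAD2, RPN8A with AT3G11270, PAC1 with AT4G15165, and the PCI domain genes AT3G02200 with AT5G15610; their adjusted p ranged from 0.0804 to 0.604. Within an organ, group means of a share spanned a median of 4.77 points over genotypes and Pi levels. The 4 leaf libraries with the highest RPN1A shares (78.9% to 82.6%) were also the 4 with the lowest long-gene medians (-0.95 to -0.41 on the log2 scale); the RPN1A share in the other 14 leaf libraries was 71.7% to 78.0%, still above all root libraries.

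**Figure D3:**
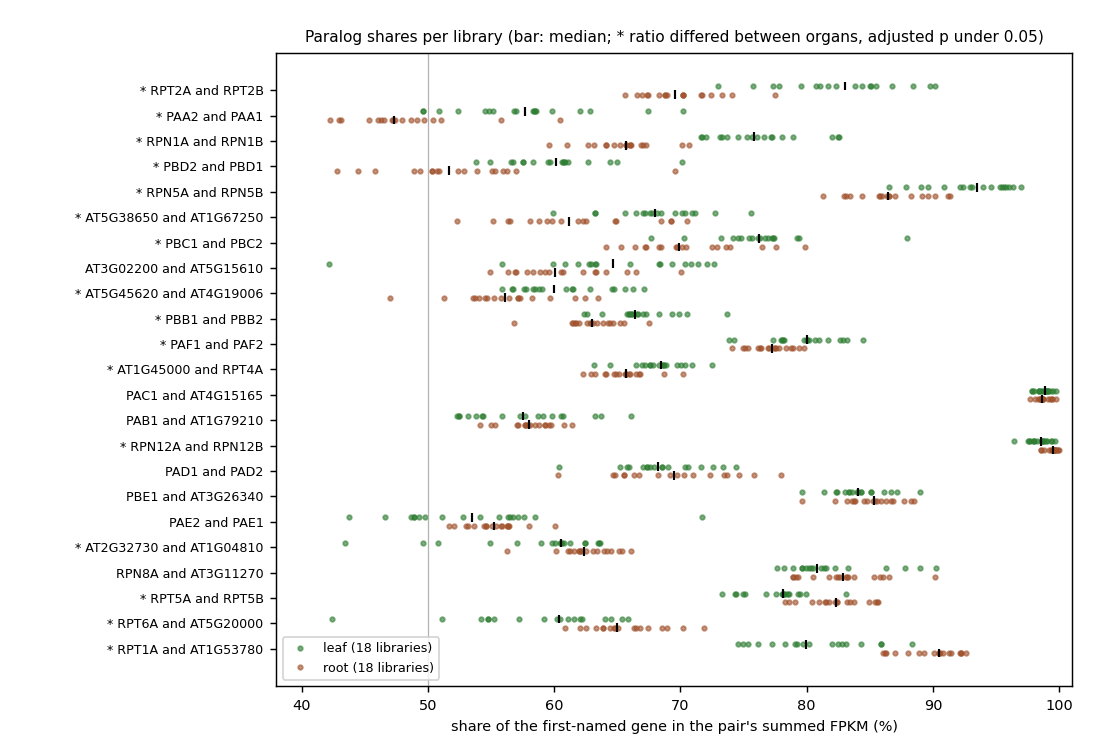
Share of the first-named gene in the summed FPKM of its paralog pair, for each of 18 leaf and 18 root libraries (points) with medians (bars), for 23 pairs ordered by the root minus leaf difference. The RPN1A share lies between 71.7% and 82.6% in leaf and between 59.6% and 70.7% in root without overlap, and 22 pairs overlap.

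Levels themselves were compared between root and leaf in 1 fit of 36 libraries. At an adjusted p under 0.05 (limma on log2(FPKM + 1), Benjamini-Hochberg over 19327 genes), 41 of 54 members were higher in root in WT at 200 µM, where 51.3% of all genes were higher. The other conditions gave 44 in WT at 0 µM (56.1% of all genes), 43 in KO at 200 µM (56.1%), 47 in KO at 0 µM (53.1%), 45 in OE at 200 µM (55.7%) and 48 in OE at 0 µM (57.1%). No member was lower in root in any of the 6 conditions, where 18.5%, 17.3%, 17.4%, 18.8%, 17.3% and 16.9% of all genes were, in the same order. In whole organs, a different mix of cell types and a different amount of RNA per cell cannot be told apart. The members' median log2 difference was between 0.77 and 1.05, beside 0.67 to 0.81 for all genes tested, so most of the shift was shared with the table as a whole. In leaf the 50 most abundant genes took 24.4% to 35.5% of each library and in root 10.7% to 14.3%, and the part of this in the FPKM difference was not tested.

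After median-of-ratios scaling of the 36 libraries, the all-gene median difference fell to between 0.14 and 0.21, and fewer members passed: 18 higher and 4 lower in root in WT at 200 µM (36.4% and 26.1% of all genes), 9 and 1 in WT at 0 µM (33.4% and 25.7%), 11 and 4 in KO at 200 µM (34.9% and 27.3%), 25 and 1 in KO at 0 µM (34.4% and 27%), 19 and 3 in OE at 200 µM (34.7% and 27.2%), and 17 and 0 in OE at 0 µM (33.5% and 26.1%). Against these shares, the share of the 54 members higher in root was above that of all genes in KO at 0 µM, below it in WT at 0 µM and KO at 200 µM, and near it in the other 3 conditions, differences that were not tested. RPN8A, RPT5A, RPT6A, AT5G15610 and AT3G02200 passed as higher in root in all 6 conditions under both scalings. The share of all genes that did so was not counted, so their number has no background to be read against.

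RPN8A, a lid subunit that partners the deubiquitinating subunit, had 35.04 to 49.78 FPKM in the 18 leaf libraries (median 44.0) and 115.5 to 175.6 FPKM in the 18 root libraries. The organs stood far apart, with log2 differences between 1.58 and 1.87 (SE 0.15) over the 6 conditions. AT5G15610, a PCI domain gene, had log2 differences between 1.30 and 1.99 (SE 0.21), and its root values never overlapped its leaf values within a condition. For WT at 200 µM its values were 14.9, 8.37 and 10.6 FPKM in leaf and 40.59, 36.96 and 45.54 FPKM in root. RPT5A, a nucleotide-binding ATPase subunit, had differences between 1.08 and 1.26 (SE 0.15). Its values in WT at 200 µM were 98.74, 61.66 and 86.85 FPKM in leaf and 218.27, 182.02 and 188.03 FPKM in root.

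By role, 10 of 11 tested RPN genes, 7 of 11 alpha ring genes, 5 of 8 RPT genes, 2 of 7 beta ring genes, 2 of 7 assembly factors and regulators and 9 of 10 genes matched by text alone were higher in root in all 6 conditions with FPKM as deposited. Together these were 35 of 54 members, where 41.1% of all genes tested were higher in all 6, and no role was tested against that share. The median over conditions was highest for AT5G15610 (1.77), the signalosome gene CSN2 (1.73), RPN8A (1.70) and RPN5B (1.55), followed by AT3G02200 (1.48), PAE2 (1.37) and RPN7 (1.29). CSN2 had wider spread (SE 0.39), with 13.01, 3.05 and 11.92 FPKM in WT leaf at 200 µM and 44.65, 30.9 and 47.77 FPKM in WT root. Other members called in all conditions, with medians between 0.67 and 1.27, included AT2G32730 and AT1G04810 (both RPN2), RPN1B, RPN13, RPN10, RPN12A and RPN5A of the regulatory particle, RPT1A, RPT3 and RPT4A, PAA1, PAC1, PAE1, PAF1, PAF2 and PAG1, PBB2 and PBE1, and CSN3, CSN4 and CSN7.

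A few members stayed level or ranked low against other genes. AT1G53780 passed in none of 6 conditions as deposited (log2 difference between -0.23 and 0.39) and was lower in root in 4 of 6 after scaling. AT1G62920, annotated as a maturation factor, passed in none under either scaling (between -0.21 and 0.38 as deposited). PAD2 was higher in root in 2 conditions as deposited and lower in 3 after scaling, and PAD1 was higher in 3 and lower in 2. AT3G53970, annotated as proteasome inhibitor-like, was higher in 1 and lower in 2. The direction for these alpha ring and inhibitor-like genes therefore depended on the scaling.

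With FPKM as deposited, genes of the same pathway outside the rule were also mostly higher in root. Of the 17 subunit loci outside the rule, 13 to 16 were higher in root depending on the condition, with medians between 0.64 and 1.01. The 10 signalosome genes, 4 of them members, gave 8 to 10 calls, and 16 ubiquitin, E1 and shuttle factor genes gave 9 to 14 higher and up to 1 lower. In the same 6 conditions 51.3% to 57.1% of all genes were higher in root and 16.9% to 18.8% were lower. No list was tested against these shares.

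**Figure D4:**
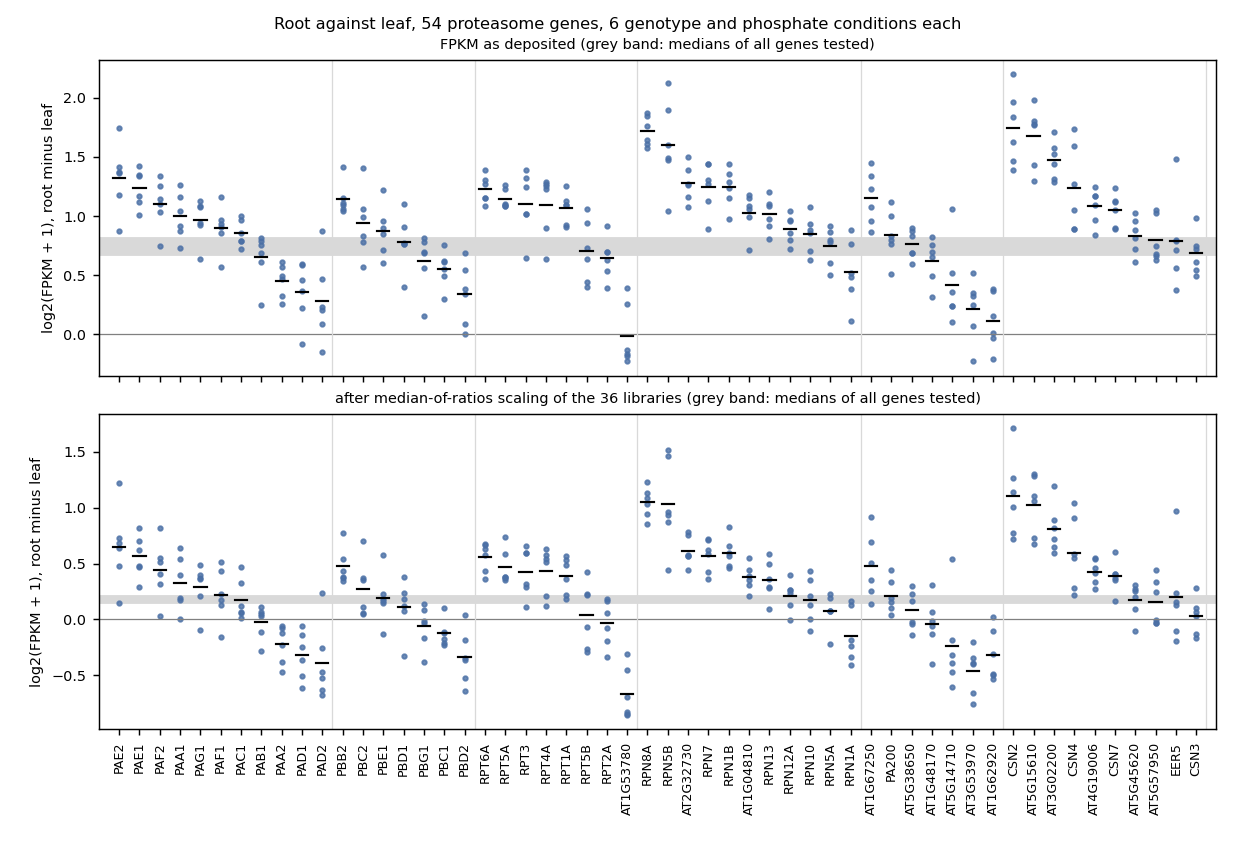
Difference in log2(FPKM + 1), root minus leaf, for 54 genes by role, with 1 point for each of 6 genotype and Pi conditions and a bar at their mean; the upper panel uses FPKM as deposited and the lower panel FPKM after median-of-ratios scaling. The grey bands mark all-gene medians of 0.67 to 0.81 and 0.14 to 0.21, and RPN8A lies above the band in every condition in both panels.

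Withdrawal of Pi was not followed by a detectable change of any of the genes in either organ. In leaf 0 of 55 members passed in WT (0.00606% of all genes did), in KO (1.1%) and in OE (0.801%). At an unadjusted p under 0.05 there were 1, 2 and 0 members, where 6.22%, 14.6% and 8.45% of all genes fell under it. In root 0 of 54 members passed in WT (1.96% of all genes), KO (3.53%) and OE (0.235%), with 6, 8 and 0 at an unadjusted p under 0.05 (20.1%, 19.7% and 5.93% of all genes). The members' median log2 change from 200 to 0 µM was 0.07, 0.01 and -0.06 in WT, KO and OE leaf and 0.09, 0.19 and -0.02 in the roots. Of the 54 members in root, 51, 51 and 52 had a 95% interval within a 2-fold change either way, and of the 55 in leaf 47, 46 and 49 did, so for most genes changes of 2-fold or more lay outside the interval.

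The smallest adjusted p belonged to PA200, the proteasome activator that caps the 20S core. In WT root it was at 17.19, 5.55 and 8.69 FPKM at 200 µM and 16.6, 21.53 and 19.73 FPKM at 0 µM, so the groups overlapped through replicate 1. Its log2 change was 0.94 ± 0.28 (SE; limma adjusted p = 0.0787), and without WT root at 200 µM replicate 1 it was 1.34 (adjusted p = 0.00316, limma). PA200 has 5436 coding bases, and its low values at 200 µM came from replicates 2 and 3, the libraries whose long genes stood lowest in root, at -1.07 and -0.42 on the log2 scale. With the length trend of each library removed its log2 change was 0.35 ± 0.15 (SE; limma adjusted p = 0.281). RPT5B followed in KO root, with 0.47 ± 0.15 (SE; limma adjusted p = 0.08648), and the maturation factor gene AT1G62920 in KO root with 1.09 ± 0.37 (SE; limma adjusted p = 0.1125), the latter at 1.88, 1.54 and 0 FPKM at 200 µM and 2.84, 3.13 and 3.47 FPKM at 0 µM.

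No member passed the threshold between WT and either line, or between the lines. In leaf at 200 µM 0 of 55 passed for KO against WT (0.873% of all genes), OE against WT (0.382%) and OE against KO (0.00606%), and at 0 µM 0 passed in the same order (0.0364%, 0.0303% and 0.00606%). In root at 200 µM 0 of 54 passed (0.0313%, 0.0417% and 0.00522%), and at 0 µM 0 passed (0.0522%, 0.0678% and 0.00522%). The counts at an unadjusted p under 0.05 were largest in root at 200 µM, with 6 higher and 7 lower in KO against WT (6.57% and 6.51% of all genes), 9 higher in OE against WT (9.03%) and 12 higher in OE against KO (8.26%). These 3 comparisons share libraries. The members' median was -0.08, 0.15 and 0.26 in them, beside -0.01, 0.12 and 0.12 for all genes, and after median-of-ratios scaling it was -0.10, 0.01 and 0.14. In the other 9 line comparisons between 0 and 2 members had an unadjusted p under 0.05. The share of all genes was 13.7%, 8.13% and 3.54% in leaf at 200 µM for KO against WT, OE against WT and OE against KO, 2.6%, 3.57% and 1.58% in leaf at 0 µM, and 12.2%, 7.13% and 8.48% in root at 0 µM.

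Among the largest estimates, RPN5B in root at 200 µM was at 16.23, 9.66 and 16.8 FPKM in OE and 10.54, 6.11 and 5.72 FPKM in KO, groups that overlapped, with a log2 difference of 0.86 ± 0.29 (SE; limma adjusted p = 0.3762). PA200 differed from WT root at 200 µM by 0.83 in KO and 0.78 in OE (SE 0.28; limma adjusted p = 0.279 and 0.295), comparisons that rest on the same WT libraries as its Pi response. RPN7, a lid subunit, was at 14.77, 56.32 and 53.04 FPKM in KO leaf at 200 µM, where replicate 1, the library with the most genes at 0, lay apart from the other 17 leaf libraries at 41.04 FPKM or more.

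**Figure D5:**
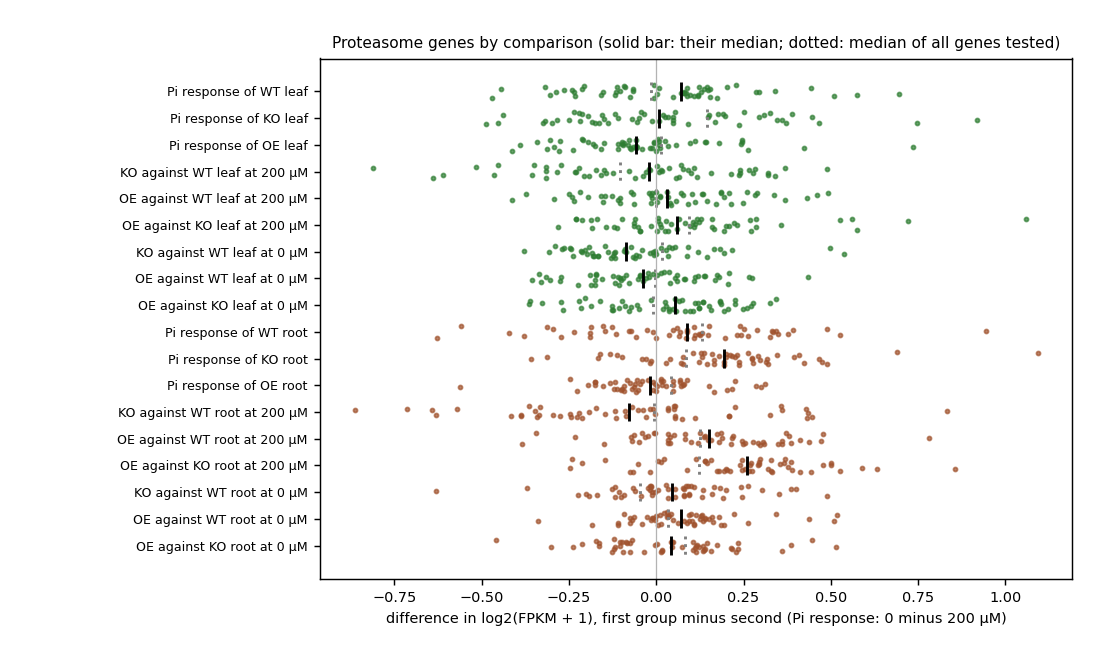
Difference in log2(FPKM + 1) of each member (points) in 6 Pi responses and 12 line comparisons, leaf above root, with the members' median (solid bar) and the median of all genes tested (dotted bar). Members' medians lie between -0.09 and 0.26, and no point passed at an adjusted p under 0.05.

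No member passed the threshold in an interaction test of whether its Pi response differed between a line and WT. For KO the count was 0 of 55 in leaf (0.127% of all genes) and 0 of 54 in root (0% of all genes), and for OE 0 in leaf (0.352%) and 0 in root (0%), with 0 and 5 members for KO (9.26% and 11.7% of all genes) and 0 and 0 for OE (8.24% and 4.82%) at an unadjusted p under 0.05. Intervals were wider here, and 37 to 45 of the members had one within 2-fold. NAC53 and NAC78, the regulators of the pathway, also passed in none of the 22 comparisons within an organ (smallest adjusted p = 0.4101, limma). The same held for the 17 subunit loci outside the rule (smallest adjusted p = 0.0528), the signalosome genes (0.1886) and the ubiquitin, E1 and shuttle factor genes (0.05466, limma).

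In the authors' deposited table of Pi responses, 0 of the 57 genes had an adjusted p under 0.05 in any of the 6 blocks. Of all genes in the authors' deposited table, 2.24%, 1.91% and 0.109% did in KO, OE and WT leaf and 4.62%, 0.732% and 0.911% in KO, OE and WT root, so few of 57 genes would be called at these shares. The smallest value there was 0.0698, for PAD2 in KO leaf with a ratio of 0.73, and the next block minimum was 0.109, for RPN1B in KO root with a ratio of 1.42. In WT root the authors' deposited table gave PA200 a ratio of 1.84 with an adjusted p of 0.378.

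Deviations from the group mean over the 18 libraries of an organ were correlated between pairs of genes, as a description with points that share library depth and composition. The median r was 0.53 among the 18 genes of the 20S core in root and 0.30 in leaf, 0.47 among 20 RPT and RPN genes in leaf and 0.21 among 19 in root, against 0.06 in leaf and 0.02 in root over all pairs of genes tested. For all members the median r was 0.15 in leaf and 0.20 in root. The 17 subunit genes outside the rule had 0.17 and 0.12, and the 10 signalosome genes 0.06 in leaf and 0.29 in root, the latter above the RPT and RPN genes there. Coding length also separated members: in WT root at 200 µM replicate 2 the 5 members over 2000 coding bases had a median deviation of -0.93, and the 28 members of 1000 coding bases or fewer had 0.29. The 18 genes of the 20S core are all short, with 600 to 837 coding bases. No gene pairs of matched length or level were compared, so the part of either in these correlations was not tested.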

How the data were processed

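The authors deposited 1 table with a value per gene for each of 36 libraries, 3 per group. The deposited values were read as FPKM from their scale, per kb of coding length. The submitters' processing notes name Trimmomatic, HISAT2 2.2.1, DESeq2 and TAIR10, with no role or order; a counting tool and a strand setting were not found in the labels. The deposited table also holds, for each Pi response, the authors' ratio of group means (in WT leaf it runs 200 over 0 µM) and their adjusted p-value. In the deposited FPKM, low values were whole multiples of 1 read, within 0.1 read, in 100% of the values checked, which gave each library's depth.

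FPKM were taken as log2(FPKM + 1), which understates changes of low genes. A gene was tested where it averaged 1 FPKM or more, with limma 3.58.1 (trend, R 4.3.3): 1 fit per organ over 18 libraries and 1 over 36 for root against leaf, Benjamini-Hochberg adjustment within a comparison, and a threshold of 0.05. Of the 57 genes, 55 were tested in leaf, 54 in root and 54 between organs. Shares and permutation tests used Python 3.11.15. The fit was tested on simulated data. Replicates of a group differed by more than sampling noise (chi-square per degree of freedom 5.85 to 124). The labels put all libraries in batch 1.

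The members and gene lists were chosen with earlier results of these data known. Named were the members past the threshold, up to 25 per comparison by size. Also named were the highest and lowest member of each role in WT at 200 µM and the paralog pairs. The Pi markers SPX1, AT4, PAP17 and MGD3 were named too. Passing genes of the other lists were only counted. PA200, RPN5B, RPN7, RPT5B and AT1G62920 within an organ were named after their values were seen. Alternatives were another pseudocount, filters, median-of-ratios scaling, voom on recovered reads, only the groups compared, a replicate block, a length correction and leaving out each library.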

Additional observations from a re-analysis of the deposited data

Results flagged for a closer look

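PAE2, an alpha ring gene, had Pi responses of opposite sense in the organs of WT, without overlap of the groups in either. In leaf it was at 33.45, 41.52 and 42.18 FPKM at 200 µM and 49.36, 45.83 and 47.63 FPKM at 0 µM, all higher at 0 µM. In root it was at 124.79, 158.77 and 116.65 FPKM at 200 µM and 106.33, 110.34 and 111.02 FPKM at 0 µM, all lower at 0 µM. The root response minus the leaf response was -0.57 on the log2 scale. This difference was not tested, and neither response passed the threshold in its organ. The share of all genes with such a pattern is not given here, so the pattern cannot be read as particular to PAE2.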

How the results depend on the processing

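Between organs, only median-of-ratios scaling moved the count of members past the threshold by over 1.5 times among the planned settings: it was 22 (both directions) in WT at 200 µM, 10 in WT at 0 µM, 15 in KO at 200 µM, 26 in KO at 0 µM, 22 in OE at 200 µM and 17 in OE at 0 µM; the cause was not tested. Leaving out each library gave 38 to 42, 38 to 47, 37 to 44, 45 to 48, 40 to 45 and 44 to 49 members in the same order. Only the 25 largest calls of each condition were followed through the settings, 150 gene results between organs. Of these, 97 passed in the same direction after that scaling, 53 no longer passed and 0 reversed in any setting. Smaller calls were not followed, and some changed sign. PAA2 was higher in root in 4 conditions as deposited, and its scaled log2 difference was between -0.47 and -0.06 over the 6 conditions.

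Within an organ the 22 comparisons stayed at 0 members with a pseudocount of 0.1, without a filter, with a filter of 5 FPKM, with median-of-ratios scaling, with only the groups compared, with a replicate block and with the length trend corrected per library. With voom on recovered reads the Pi response of WT root had 1 member, PA200. Without WT root at 200 µM replicate 1 the range was 0 to 4 members for the Pi response of WT root (RPN1A, AT2G32730, PA200 and RPT4A), 0 to 3 for KO against WT root at 200 µM and 0 to 1 for OE against WT root at 200 µM. RPN1A, AT2G32730 and PA200 have 2676, 3015 and 5436 coding bases, while RPT4A has 1200. RPT3, 1 of the members called in KO against WT, has 1227. Replicates 2 and 3, which remained, were the libraries whose long genes stood lowest in root (-1.07 and -0.42 on the log2 scale). The part of gene length in these calls was not tested. Without KO root at 200 µM replicate 1 it was 0 to 1 for the Pi response of KO root (PAA1). WT root replicate 1 and KO root replicate 1, both at 200 µM, decide those counts. The remaining within-organ ranges were 0 to 0.

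The pair count of 16 was 16 with a pseudocount of 0.1 and 16 to 18 with 1 library left out (20000 permutations), alternatives added after seeing the data. Same-numbered replicates did not deviate together throughout (correlation over 45 library pairs from -0.373 to 0.723, median -0.027, in leaf and from -0.348 to 0.221, median -0.051, in root, with 10 and 7 pairs over 0.1), and the replicate block changed no call within an organ, where 0 members passed, and moved 1 count between organs, in KO at 0 µM, from 47 to 48. The lowest root depth, 2070000 reads, limits genes near 1 FPKM such as RPN12B.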
